A study of Homo sapiens with 4 samples.

Results

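MECOM and PRDM16 are paralogous genes that encode zinc finger transcription factors with a PR domain. Their members here are the array's probe sets annotated to only 1 of the 2 symbols, 5 for MECOM and 2 for PRDM16, which makes 2 of 19775 genes and 7 of 54675 probe sets. The pair was chosen by measured values of the same 4 arrays: MECOM had already been seen to be higher on both KSR1 hairpin arrays than on both others, so its values in that contrast are a description and carry no test. PRDM16 was listed beside it as its closest relative.

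MECOM makes several proteins from separate transcription starts. A long form, MDS1-EVI1, carries the PR domain, and the shorter EVI1 lacks it but keeps both groups of zinc fingers. EVI1 is best known as an oncogene that chromosome rearrangements switch on in myeloid leukaemia, and MECOM is also needed by blood stem cells. PRDM16, also called MEL1, is known for its part in fixing the brown fat cell fate and in stem cell maintenance. Both proteins bind the CtBP corepressors and have been described as methyltransferases of histone H3 lysine 9 or as partners of such enzymes.

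The series holds 4 one-colour Affymetrix arrays of HCT116, an established human colorectal carcinoma line. The first array is from untransfected cells. The second, shCTRL, is from cells transfected with a non-targeting short hairpin construct, and the other 2 are from cells transfected with hairpin #1 or hairpin #2 against KSR1, a scaffold of the RAF, MEK and ERK kinases. The hairpin cells and the shCTRL cells, but not the untransfected cells, had therefore gone through lipofection and puromycin selection of clones. The sources used here do not give whether an array stands for 1 clone or several. Each group had 1 array, so differences had no replicate check and no p-value was computed. In such bulk RNA, more cells with a transcript and more transcript per cell cannot be told apart.

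Array medians lay between 50.7 and 52.0 intensity units and 25th percentiles between 17.9 and 18.6. The actin control probe sets gave a 3' signal 2.68 times the 5' signal in untransfected cells and 2.01 to 2.22 times on the others. KSR1, the targeted gene, had intensities of 209 (untransfected), 211 (shCTRL), 141 (hairpin #1) and 171 (hairpin #2) on its brightest probe set, with 3 other probe sets at or below 60.4. None of these 3 separated the hairpin arrays from the others. The brightest of them read 60.4, 49.6, 43.7 and 51.1 in the same order, so the lower KSR1 signal rests on 1 probe set. All 9 epithelial markers passed the brightness filter used below, from KRT18 at 12123 to 16755 down to CDX2 at 79.9 to 131 and VIL1 at 56.0 to 62.6. Leukocyte markers had no member past that filter, their brightest being CD3E at 41.4 to 53.0. Among markers of cells in which MECOM is prominent, 3 of 6 progenitor markers passed the filter, GATA2, GATA1 (92.7 to 120) and TAL1 (83.2 to 109), and 1 of 5 endothelial markers did. The progenitor markers CD34 (42.2 to 58.5) and KIT (15.6 to 21.2) and the endothelial markers KDR (9.66 to 11.4) and CDH5 (9.94 to 11.2) did not pass. Summed over 6 progenitor markers the intensity was 463 (untransfected), 473 (shCTRL), 412 (hairpin #1) and 788 (hairpin #2), the last including GATA2, a blood transcription factor, at 532. Over 5 endothelial markers it was 191, 189, 177 and 172, and PECAM1 was the brightest at 80.5 to 92.9. The fibroblast markers, led by COL1A1 at 372 to 433, summed to 590.5 to 666, and the adipocyte markers, led by PLIN1 at 68.4 to 72.2, summed to 113 to 118.

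The probe sets of MECOM did not behave alike, and the gene is read from several starts, so the sequences of those starts are shown first. The RefSeq promoter table (build GRCh38.p14, 250 bases before and 50 bases after each start) matched 1 of the 2 genes, MECOM, with 3 entries, all on the minus strand of chromosome 3. Start 1 lies 516 kilobases upstream of start 2, and starts 2 and 3 are 932 bases apart. The sequences run 5' to 3' on the strand of the gene. Capitals mark matches to any of 6 motifs that were searched on both strands, which are spelled out after the sequences.

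MECOM start 1, chr3:169663663-169663962: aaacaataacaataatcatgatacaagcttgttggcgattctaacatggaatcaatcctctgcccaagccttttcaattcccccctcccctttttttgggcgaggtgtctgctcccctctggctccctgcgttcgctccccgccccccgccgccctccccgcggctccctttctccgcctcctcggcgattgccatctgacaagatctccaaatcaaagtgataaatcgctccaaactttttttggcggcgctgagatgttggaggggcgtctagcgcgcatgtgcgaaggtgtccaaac
MECOM start 2, chr3:169147422-169147721: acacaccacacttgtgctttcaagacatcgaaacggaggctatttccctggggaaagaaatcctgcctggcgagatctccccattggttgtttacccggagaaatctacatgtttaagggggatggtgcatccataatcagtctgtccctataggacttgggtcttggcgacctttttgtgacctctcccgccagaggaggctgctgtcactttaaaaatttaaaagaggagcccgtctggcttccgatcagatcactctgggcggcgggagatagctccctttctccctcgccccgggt
MECOM start 3, chr3:169146490-169146789: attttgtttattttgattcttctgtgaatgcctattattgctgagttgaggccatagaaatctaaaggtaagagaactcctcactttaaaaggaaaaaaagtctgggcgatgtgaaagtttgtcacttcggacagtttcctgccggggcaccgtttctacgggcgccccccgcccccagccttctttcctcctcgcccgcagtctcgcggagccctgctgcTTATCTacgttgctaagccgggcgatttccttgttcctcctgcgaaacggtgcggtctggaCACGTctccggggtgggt

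Starts 1 and 2 held no match to the 6 motifs. Start 3 held 1 GATA match, beginning 29 bases before the start, and 1 hypoxia core, beginning 32 bases after it. Among 35116 promoters of this length, 10.3% held the GATA motif, AGATAA. The hypoxia response core, ACGTG, was in 21.4%. The E-box, CACGTG, which contains that core, was in 7.26%. The ETS motif, CCGGAAG, was in 10.3%, the AP-1 motif, TGANTCA, in 7.71% and the TATA box, TATAAA, in 11.5%. The 3 MECOM windows held 19, 12 and 19 CpG dinucleotides against a median of 14. A match is only a match of letters, and the array annotation does not say from which start a probe set's transcript came.

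MECOM signal was higher with both KSR1 hairpins on 2 of its 5 probe sets. On 221884_at the intensity was 38.5 (untransfected), 37.6 (shCTRL), 125 (hairpin #1) and 139 (hairpin #2). Both arrays without a KSR1 hairpin lay below their array's median and both hairpin arrays lay well above it, with no overlap. As linear ratios, hairpin #1 stood at 3.34 times and hairpin #2 at 3.70 times the shCTRL value. These ratios are uncertain because the lower values are dim and no detection call was used.

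The other separating probe set, 226420_at, gave 22.4 (untransfected), 41.9 (shCTRL), 108 (hairpin #1) and 119 (hairpin #2). The hairpin arrays were again the 2 highest, but here the untransfected and shCTRL arrays were apart. Hairpin #1 and #2 were 2.57 and 2.83 times shCTRL and 4.80 and 5.29 times untransfected cells. The untransfected value was as dim as probe sets whose target may not be detected at all, so the ratios to it have no firm denominator. The probe set was annotated to an expressed sequence tag, and 221884_at was annotated by symbol and gene identifier alone.

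**Figure D1:**
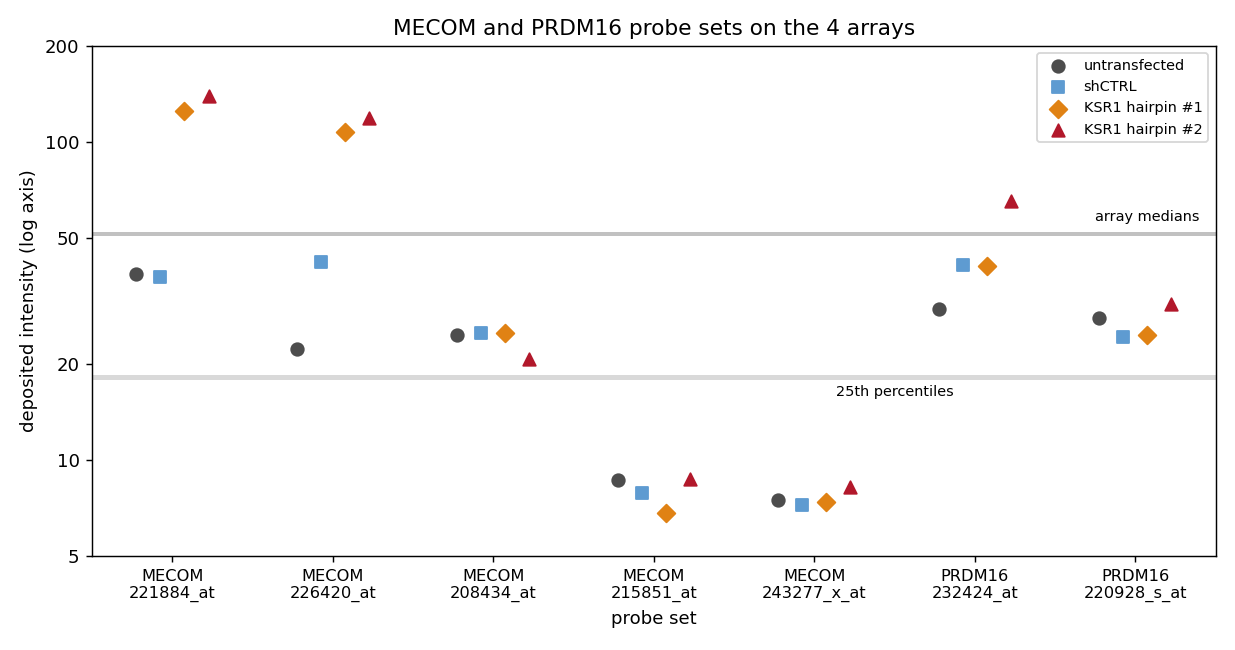
Deposited intensity (log axis) of the 5 MECOM and 2 PRDM16 probe sets on the 4 arrays, 1 point per array. Grey bands mark the range of the array medians (50.7 to 52.0) and 25th percentiles (17.9 to 18.6). On 221884_at and 226420_at both hairpin arrays stand at 108 or above while the other arrays stay at 41.9 or below, and the other 5 probe sets show no such separation.

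Ranks within each array show how far MECOM moved among all probe sets. On 221884_at it was brighter than 42.5% of the compared probe sets (untransfected), 42.2% (shCTRL), 67.7% (hairpin #1) and 69.1% (hairpin #2). On 226420_at the shares were 29.4%, 45.0%, 65.3% and 66.7%. The signal thus went from the dimmer side of the array to the upper middle, and not to the level of an abundant gene, since the 95th percentile of intensity was at least 1395 on every array.

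Differences were then taken on the scale of log2(intensity + 16), on which a difference of 1 unit was used as the size rule and which understates differences of dim probe sets. The mean of both hairpin arrays minus the mean of both others was 1.45 for 221884_at and 1.45 for 226420_at. The gap, meaning the distance between the lowest hairpin array and the highest other array, was 1.37 and 1.10. Only probe sets whose mean over the 4 arrays reached 6.08, the median of all, were counted. Both MECOM probe sets passed that filter (mean 6.48 and 6.29) through their hairpin arrays, since each lay below 6.08 on both other arrays.

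A gap of at least 1 was rare on this array: 7 of 27307 probe sets past the filter had one, which is 0.0256%, and 8 of all 54613, which is 0.0146%. Nothing is read from this for MECOM, since it was picked on this contrast. The 7 belonged to only 3 genes. EHF, an epithelial ETS factor, had 4 of its 6 probe sets among them, MECOM 2 of 5, and PRKAA2, a catalytic subunit of AMP-activated kinase, 1 of 5. The further probe set counted without the filter was also of PRKAA2, 238441_at, and its gap of 1.35 was wider than that of MECOM 226420_at. By gap, MECOM 221884_at stood behind only PRKAA2 227892_at (1.602) and EHF 219850_s_at (1.401). MECOM 226420_at (1.10) and EHF 224189_x_at (1.08) lay just inside the limit, and EHF 232361_s_at (0.985) and the protease gene KLK6 (0.854) lay just outside.

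Each hairpin was set against each other array in turn. For 221884_at hairpin #1 differed by 1.37 from untransfected cells and by 1.40 from shCTRL, and hairpin #2 by 1.51 and 1.53. For 226420_at hairpin #1 differed by 1.69 and 1.10, and hairpin #2 by 1.81 and 1.22. All 8 of these differences exceeded 1 log2 unit, which the gaps above 1 already imply. Among probe sets past the filter, 0.271% were that far above untransfected cells with hairpin #1 and 0.989% with hairpin #2, and 0.106% and 0.798% were that far above shCTRL. These comparisons share arrays and are not independent of each other. Nothing is read from these shares for MECOM, since it was picked on this contrast.

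The arrays without a KSR1 hairpin were compared as a scale for these differences. Over the 500 probe sets nearest in brightness, the absolute difference between shCTRL and untransfected cells had a 95th percentile of 0.49 around 221884_at and 0.42 around 226420_at. Brightness here was the mean over the 4 arrays, which the hairpin arrays raised. For 221884_at it was 6.48, against 5.77 (untransfected) and 5.74 (shCTRL). MECOM itself differed by -0.03 between these arrays on 221884_at, well within that scale, and by 0.59 on 226420_at, beyond it. The probe sets therefore disagreed on whether shCTRL cells had more MECOM signal than untransfected cells. Across the whole filtered array 0.707% of probe sets were at least 1 log2 unit apart between shCTRL and untransfected cells, and neither MECOM probe set was.

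The hairpin arrays were close to each other on both. Hairpin #2 minus hairpin #1 was 0.13 for 221884_at and 0.12 for 226420_at, within the scale above, although 1.44% of filtered probe sets were at least 1 log2 unit apart between these arrays. In order of level, untransfected and shCTRL cells were not separable on 221884_at, nor were the hairpin arrays. The step between the pairs was beyond the scale, but nothing is read from it, since MECOM was picked on that step. On 226420_at the step from untransfected to shCTRL also exceeded the scale. The ratio of 221884_at to 226420_at signal was 1.72 (untransfected), 0.897 (shCTRL), 1.16 (hairpin #1) and 1.17 (hairpin #2).

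**Figure D2:**
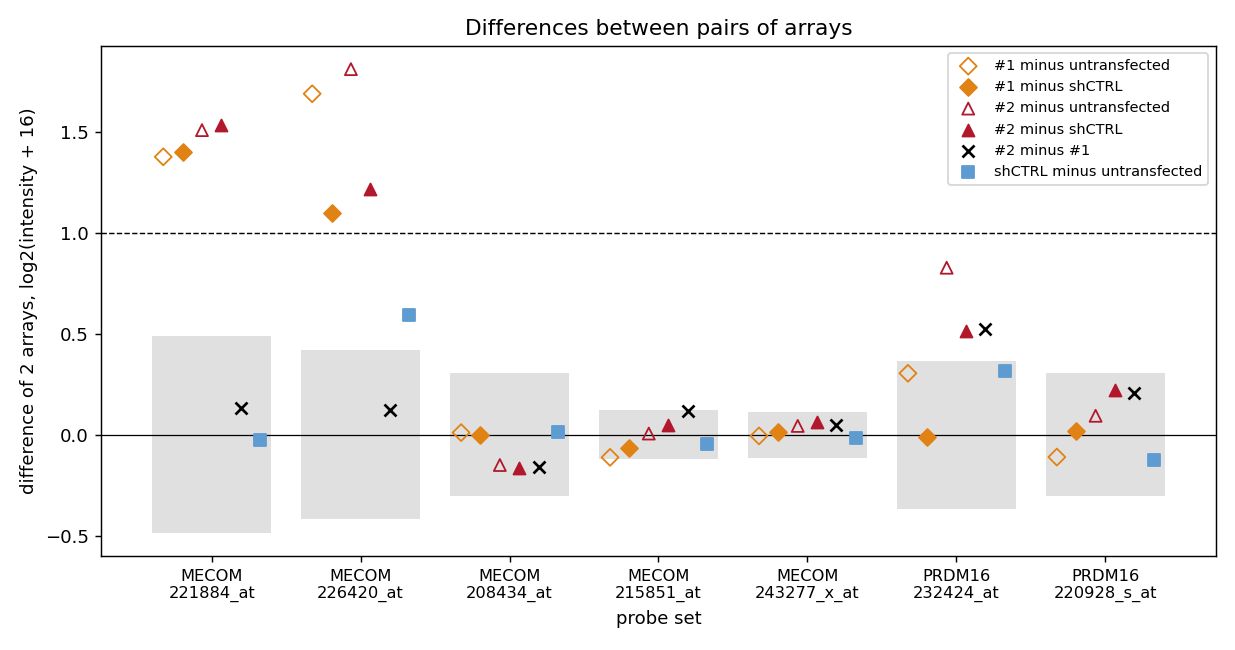
Difference of 2 arrays in log2(intensity + 16) for each MECOM and PRDM16 probe set, 1 symbol per pair of arrays. Grey boxes span plus and minus the 95th percentile of the absolute shCTRL minus untransfected difference among the 500 probe sets nearest in brightness, and the dashed line marks 1 log2 unit. The 4 hairpin differences of 221884_at (1.37 to 1.53) and of 226420_at (1.10 to 1.81) lie above the line, and those of the other 5 probe sets lie below it.

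The other 3 MECOM probe sets were dim on every array. Probe set 208434_at, annotated to a RefSeq transcript of MECOM, read 24.8 (untransfected), 25.2 (shCTRL), 25.1 (hairpin #1) and 20.8 (hairpin #2). Its highest and lowest arrays were 0.16 log2 units apart, and the lowest was a hairpin array. Probe set 215851_at, annotated to another nucleotide record, read 8.66, 7.92, 6.81 and 8.75 in the same order. Probe set 243277_x_at, whose suffix marks probes that may also bind other sequences, read 7.51, 7.22, 7.41 and 8.23.

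None of these 3 passed the brightness filter, and 215851_at and 243277_x_at were brighter than at most 7.62% of compared probe sets on any array. Differences between both hairpin arrays and both others were -0.08, -0.03 and 0.03. Signal this low does not tell whether their target sequence was present. Yet 208434_at (24.8) was no dimmer in untransfected cells than 226420_at (22.4). With hairpins #1 and #2 226420_at read 108 and 119, and 208434_at read 25.1 and 20.8. The 3 thus did not show the difference of the separating probe sets, and the reason was not tested. Averaged over all 5 probe sets, the MECOM difference was 0.56.

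PRDM16 showed no separation of hairpin from other arrays. Its brighter probe set, 232424_at, read 29.9 (untransfected), 41.1 (shCTRL), 40.6 (hairpin #1) and 65.3 (hairpin #2). Hairpin #2 was the highest array and untransfected cells the lowest, while shCTRL and hairpin #1 were almost equal between them. Only the hairpin #2 value was above its array's median, at the 55.7% mark of compared probe sets. The mean over all arrays (5.88) stayed under the filter.

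On the log2 scale hairpin #1 minus shCTRL was -0.01 and hairpin #2 minus shCTRL was 0.51, with 0.37 as the 95th percentile between shCTRL and untransfected cells at this brightness. Hairpin #2 was above hairpin #1 by 0.52, and shCTRL was above untransfected cells by 0.32. In order of level, neighbouring arrays up to shCTRL did not differ beyond that scale, and the step to hairpin #2 did. The scale comes from shCTRL and untransfected cells alone and may be narrow for hairpin #2. Of filtered probe sets, 1.44% were at least 1 log2 unit apart between the hairpin arrays, against 0.707% between shCTRL and untransfected cells. Both hairpin arrays minus both others came to 0.41, but the groups overlapped, with a gap of -0.01 that became 0.01 when each array was centred on its median. Among all probe sets, 17.3% had both hairpin arrays above both others by any amount, and 22.8% of those past the filter.

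The other PRDM16 probe set, 220928_s_at, annotated to a RefSeq transcript of PRDM16, read 28.1, 24.3, 24.8 and 31.0 in that order of arrays. Its arrays were interleaved and its whole range was 0.22 log2 units, under the 0.31 of the control pair at this brightness. Hairpin #2 was the highest array on both PRDM16 probe sets, as on the dim MECOM probe sets 215851_at and 243277_x_at. The share of all probe sets highest on hairpin #2 was not counted, so nothing is read from this. Levels were not compared between MECOM and PRDM16, since different probes have different brightness for the same amount of RNA.

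Genes whose profile over the 4 arrays was most like that of MECOM were looked up among 482 genes past the filter with a range of at least 1 log2 unit. Likeness was the Euclidean distance between mean-centred log2 values, and 4 arrays allow no test of it. MECOM's own other separating probe set lay at a distance of 0.44. The 8 nearest other genes lay between 0.56 and 0.67. They were HOXB3, a homeobox factor, SLC25A13, the mitochondrial aspartate-glutamate carrier, DLX2, another homeobox factor, KLF2, a Krüppel-like factor, SLC7A11, the cystine transporter, DNER, a Notch-related receptor, GALNT3, a mucin-type glycosyltransferase, and CYSRT1.

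Their differences between hairpin and other arrays were smaller than that of MECOM, which was picked on this contrast. HOXB3 read 345 (untransfected), 362 (shCTRL), 587 (hairpin #1) and 846 (hairpin #2), a difference of 0.96 with a gap of 0.68. DLX2 read 144, 133, 250 and 282 and had the highest correlation with MECOM over the 4 arrays, 0.995. KLF2 read 584, 707, 1064 and 1337. In all 8 both hairpin arrays were above both others, with gaps between 0.47 and 0.73, and hairpin #2 was above hairpin #1. This order is not a separate result, since the 8 were picked for their likeness to MECOM on these same arrays. By correlation in place of distance, 5 of the 8 were again among the first 8. EHF and PRKAA2, which share with MECOM a gap above 1, were the 30th and 104th nearest, at 0.92 and 1.22. The distance also grows with the size of a difference, which was 2.03 for EHF and 2.25 for PRKAA2 against 1.45 for MECOM. These ranks therefore do not tell an unlike pattern from a larger one.

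**Figure D3:**
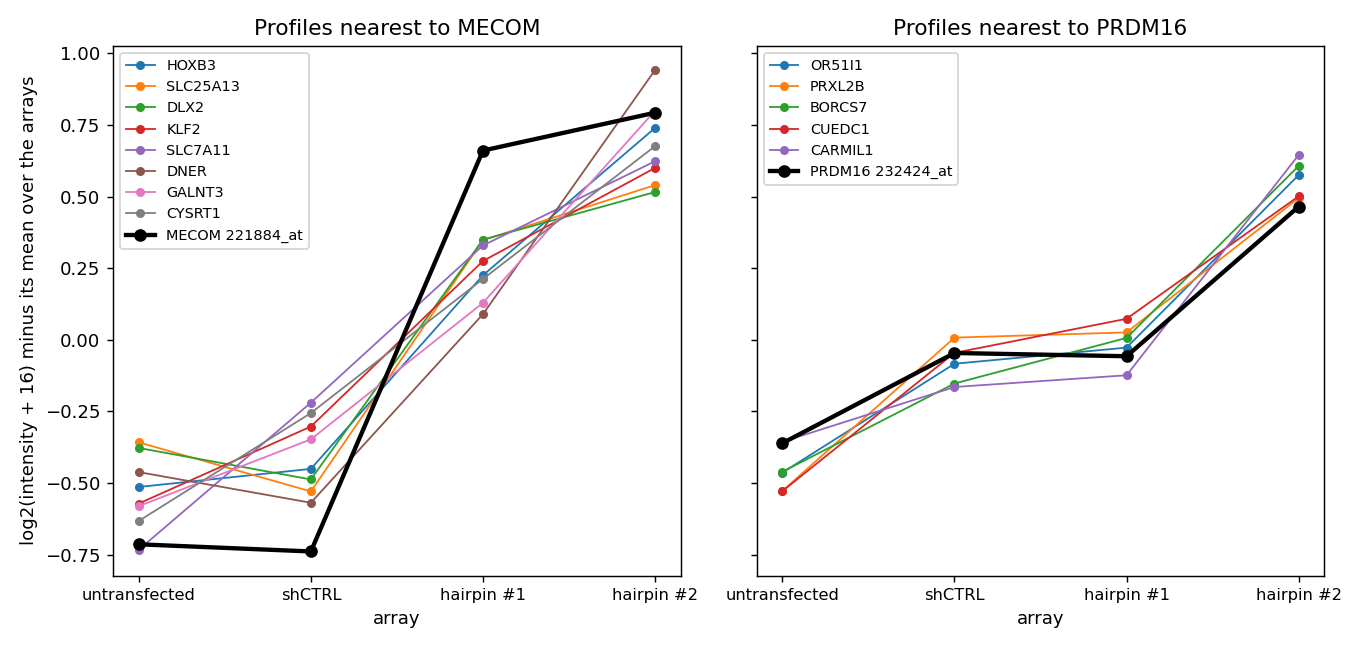
Mean-centred log2(intensity + 16) on the 4 arrays for MECOM 221884_at with its 8 nearest genes (left) and PRDM16 232424_at with its 5 nearest (right). Lines join the values of a gene and stand for no order of the arrays. MECOM was picked on the step between the arrays without and with a KSR1 hairpin, so nothing is read from its being the widest shown. The PRDM16 profile is set by untransfected cells at the low end and hairpin #2 at the high end.

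The 5 profiles nearest to PRDM16 232424_at, among 483 genes, were those of OR51I1, an olfactory receptor, PRXL2B, a prostaglandin synthase, BORCS7, a subunit of a lysosome-positioning complex, CUEDC1 and CARMIL1, a regulator of actin capping. Their distances were 0.16 to 0.23. OR51I1 read 85.2, 116, 121 and 192 in that order of arrays, the same order of a low untransfected, 2 middle and a high hairpin #2 array. Only 1 of the 5 was also among the first 5 by correlation.

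Genes next to MECOM and PRDM16 on the chromosome were then described. Whether a difference extended along the chromosome was not tested. Around MECOM, 9 of the 10 nearest protein-coding genes, 5 on each side, had a value and 4 passed the filter. GOLIM4, a Golgi membrane protein gene next to MECOM on one side, read 354 (untransfected), 280 (shCTRL), 398 (hairpin #1) and 306 (hairpin #2), with the arrays interleaved. ACTRT3, an actin-related gene next to it on the other side, was dim at 29.7, 57.6, 40.2 and 55.5. MYNN, a zinc finger gene, was lower on both hairpin arrays, by 0.36, and SERPINI1 and PDCD10 were higher by 0.11 each with gaps of 0.01 and 0.02 that closed after quantile normalization. The differences of the 4 ran from -0.36 to 0.14. Nothing is read from the larger value of MECOM, since it was picked on this contrast. The median over the 4 was 0.11 against 0.02 over all 12478 genes past the filter. With 1 array left out it ran from 0.0073 (without shCTRL) to 0.16 (without untransfected cells).

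Around PRDM16, on chromosome 1, all 10 nearest genes had a value and 7 passed. ACTRT2 was dim at 23.1 to 29.0, and ARHGEF16, on the other side, read 233, 228, 223 and 293. PRXL2B, gene 4 on the lower-coordinate side and also the second nearest PRDM16 profile, read 398 (untransfected), 584 (shCTRL), 592 (hairpin #1) and 825 (hairpin #2). It had a difference of 0.52 and a gap of 0.02 that closed after quantile normalization. Of the 7, it alone was above both other arrays with both hairpins, while MMEL1 and TP73, the p53 relative, were below. The median was 0.01, -0.05 after quantile normalization, and -0.04 to 0.07 without 1 array.

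**Figure D4:**
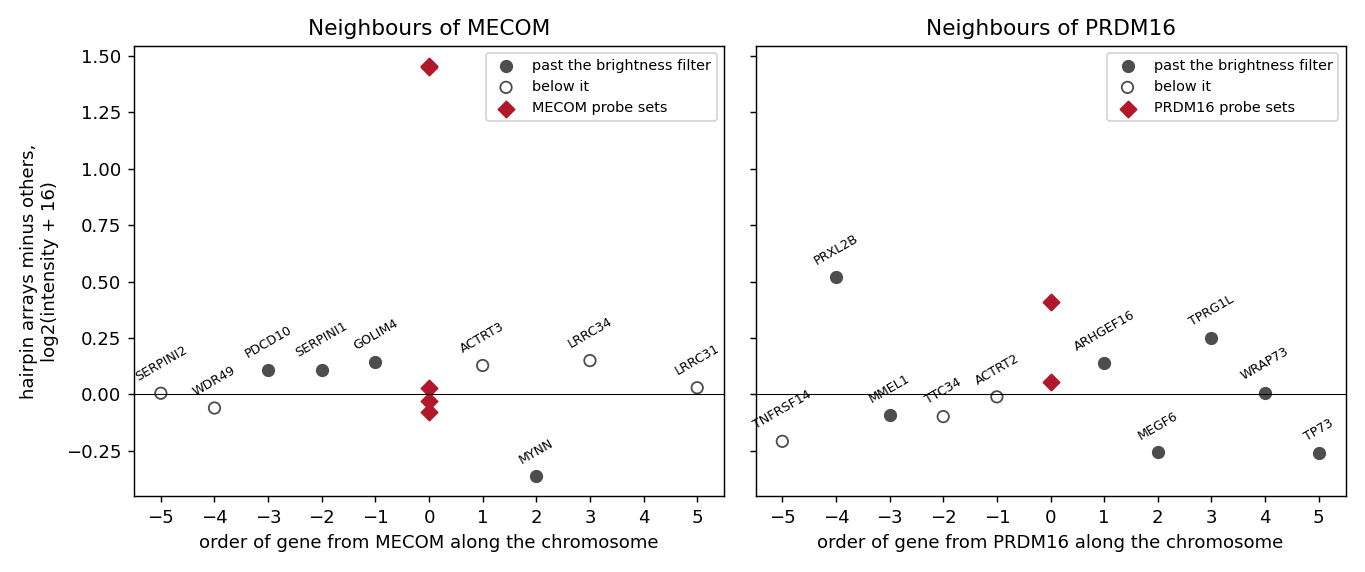
Mean of both hairpin arrays minus mean of both others in log2(intensity + 16) for the nearest protein-coding genes with a value, by their order from MECOM (left) and PRDM16 (right). Red diamonds are the members' probe sets, and the 2 separating MECOM probe sets overlap at 1.45. All MECOM neighbours shown lie between -0.36 and 0.15.

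Relatives and partners were described from gene lists, each gene read from its brightest probe set. Among all genes past the filter, 22.5% had both hairpin arrays above both others and 18.4% had both below, by any amount, and these shares are the background for the counts that follow. The list medians moved with single arrays: leaving out each in turn, they ran from -0.10 to -0.0020 for the PRDM family, 0.03 to 0.12 for MECOM cofactors and -0.03 to 0.05 for PRDM16 cofactors. They ran from 0.03 to 0.16 for H3K9 methyltransferases, from 0.08 (without hairpin #2) to 0.31 (without hairpin #1) for SKI and SMAD genes, and from -0.10 to 0.05 for brown fat genes. Of 17 PRDM family and PR-like genes, 16 had a value and 11 passed the filter. PRDM4, a neurotrophin receptor-binding factor, was above with both hairpins (573, 673, 707 and 716, difference 0.19), as was PRDM2, also called RIZ (164, 187, 192 and 188, difference 0.11). PRDM1, the plasma cell factor BLIMP1, was below (102, 80.7, 73.7 and 75.9, difference -0.23). The other 8, among them PRDM10 (-0.18), PRDM6 (-0.13) and ZFPM1 (-0.02), the GATA1 cofactor FOG1, had interleaved arrays, and the list median was -0.03. After quantile normalization PRDM2 no longer separated, and PRDM10 and ZNF408 were also below both others.

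All 14 MECOM cofactors with a value passed the filter, the dimmest being KAT2B at 53.6 to 86.1, and 4 were above both other arrays with both hairpins and 0 below, with a median of 0.07. The histone acetyltransferase CREBBP differed by 0.31 (767, 723, 916 and 933) and the DNA methyltransferase DNMT3B by 0.23. The deacetylase HDAC1 and the H3K9 methyltransferase SUV39H1 made up the 4, with gaps of 0.04 and 0.02, of which SUV39H1 no longer separated after quantile normalization. CTBP2, the corepressor that both proteins bind, was the brightest at 5312, 4505, 4952 and 5544, and CTBP1 read 1064, 1288, 1261 and 1128, both with interleaved arrays. KAT2B, an acetyltransferase, differed by -0.27 and HDAC2 by 0.19, again with interleaved arrays.

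Of the PRDM16 cofactors, 12 of 14 passed the filter, 1 was above, 1 was below and the median was 0.03. After quantile normalization 3 were below (ESRRA, SKI and ZNF516) and the median was -0.01. ZNF516, a zinc finger partner of PRDM16 in brown fat, was lower with both hairpins, at 131 (untransfected), 124 (shCTRL), 70.2 (hairpin #1) and 73.3 (hairpin #2). Its difference of -0.71 was the largest of the list, its groups did not overlap, and the distance between them was 0.65 log2 units, under the size rule. CEBPB, a leucine zipper factor, was higher (1476, 1464, 1758 and 2241, difference 0.43). PPARG, the adipocyte nuclear receptor, was at 1004 in untransfected cells and 1188 with hairpin #2, against 278 in shCTRL and 314 with hairpin #1, so its pattern paired the arrays the other way. PPARGC1B, a coactivator, differed by 0.22 with interleaved arrays, and PPARGC1A was dim at 11.7 to 13.2.

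All 6 H3K9 methyltransferases passed the filter, with 2 above, 1 below and a median of 0.08. SUV39H2 was higher (516, 580, 734 and 614, difference 0.29), as was SUV39H1 (0.11), SETDB1 was lower (-0.14), and SETDB2 (0.19) and EHMT2 (0.02), the brightest, had interleaved arrays.

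Both MECOM and PRDM16 have been described as repressors of SMAD signalling, and PRDM16 as a partner of SKI. Of 15 SKI and SMAD genes past the filter 3 were above, 0 were below and the median was 0.12. After quantile normalization 2 were above and SKI was below. The receptor TGFBR2 was higher (395, 469, 528 and 565, difference 0.33), as were SMAD4 (0.08) and, except after quantile normalization, SMAD1 (0.21). The inhibitors of DNA binding ID3 (738, 1381, 1144 and 2107, difference 0.61) and ID1 (0.35), and SKIL (-0.29), had interleaved arrays, as had ID2, the next brightest after ID1 (2357, 1958, 2008 and 2962). SKI itself read 806, 836, 824 and 742. Of genes reported as MECOM targets in other cells 7 of 13 with a value passed, with 1 above, 0 below and a median of 0.31. FOS, an AP-1 subunit, was the 1 (90.2, 88.7, 175 and 107, difference 0.54). GATA2, a known EVI1 target, had the largest difference (0.72), but from hairpin #2 alone, at 146, 162, 127 and 532. The glucose transporter SLC2A1 (1081, 1506, 750 and 3313, difference 0.31) was the brightest, and together with the adhesion receptor gene ADGRG1 (0.37) and the integrin ITGA6 (0.07) it had interleaved arrays. Without the untransfected array the median of this list was 0.07, without shCTRL 0.53, and without hairpin #2 it turned to -0.03.

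Of the brown fat genes linked to PRDM16 only 4 of 9 with a value passed, with 0 above, 2 below and a median of -0.03. The 2 were DIO2, a deiodinase (-0.10), and CIDEA, a lipid droplet protein (-0.09), and CIDEA no longer separated after quantile normalization or median centring. ELOVL3, a fatty acid elongase, differed by 0.23 with its highest value, 139, on hairpin #2, and PPARA by 0.04. UCP1, the thermogenic uncoupling protein, was near the 25th percentile at 18.0 to 20.1.

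**Figure D5:**
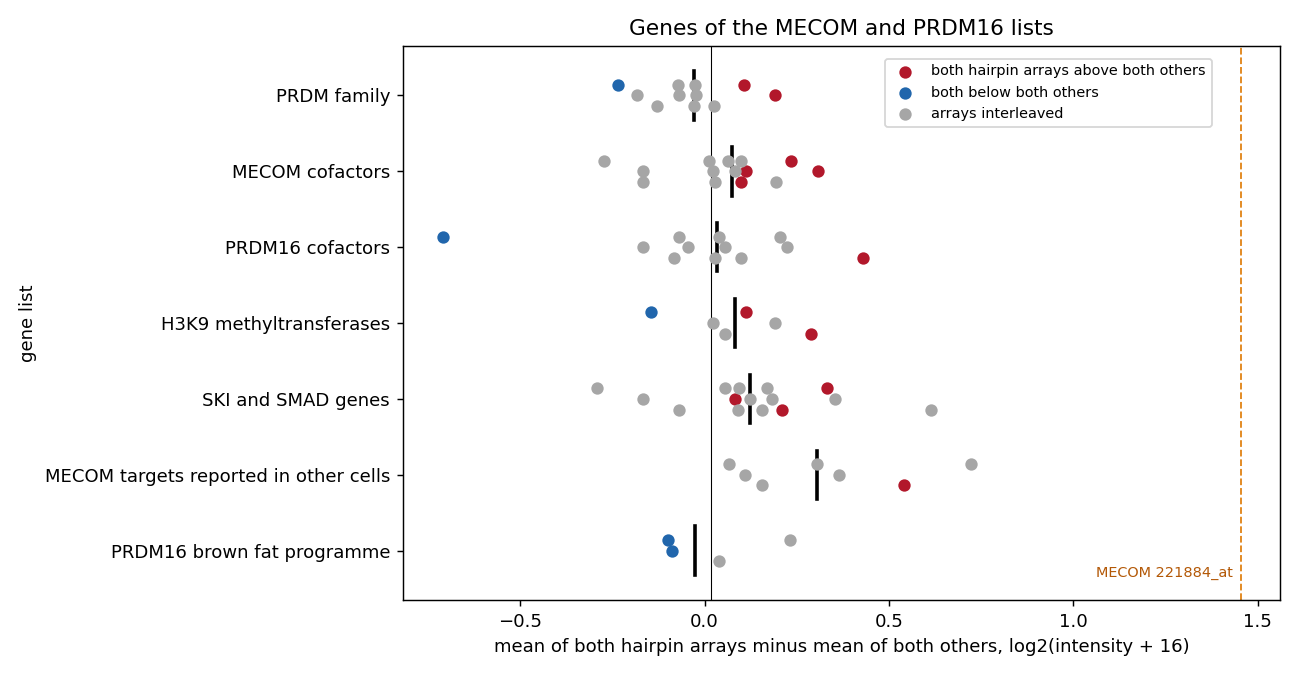
Mean of both hairpin arrays minus mean of both others in log2(intensity + 16) for each gene past the filter in 7 lists, coloured by whether the hairpin arrays separate from the others. Black ticks are list medians, the thin line is the median over all genes past the filter (0.02) and the dashed line is MECOM 221884_at (1.45). The listed genes run from ZNF516 at -0.71 to GATA2 at 0.72. MECOM was picked on this contrast, so nothing is read from its distance to them.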

How the data were processed

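Total RNA from 4 HCT116 samples, 1 per group, was labelled from 2.5 micrograms and hybridised to Affymetrix arrays, per the labels. The authors deposited linear intensity values, 1 per probe set and array, from 4.72 to 26251 with control probe sets included. The sources used here do not give their background correction, summary or normalization. Values were converted to log2(intensity + 16) from the deposited intensity values without further scaling. The 62 control probe sets were left out. Symbols came from the platform annotation: 41097 probe sets had 1 symbol, 1801 several and 11777 none, and 41043 were matched to RefSeq (GRCh38.p14), with 0 symbols updated. A gene took its brightest probe set. With 1 array per group no test was run, and a size rule of 1 log2 unit (2-fold) was used instead. The size rule and the likeness measure were tested on simulated data. The simulated arrays had the same spread at every brightness and no planted difference near 1 log2 unit. They therefore do not show how the rule behaves near its limit in these data. The members, lists and motifs were chosen with earlier results of these data known. Named genes were all member probe sets, KSR1, the nearest profiles, per list up to 4 genes by difference and 2 by level, the nearest neighbours, and the brightest marker of each list. Others named were chosen after their values were seen: PRDM2, ZNF408, CTBP1, ESRRA, PPARGC1A, SKI, SMAD1, SMAD4, UCP1, KLK6, EHF, PRKAA2, MYNN, SERPINI1, PDCD10, PRXL2B as a neighbour, MMEL1, TP73, and the markers CD34, KIT, GATA1, TAL1, CDX2, VIL1, KDR and CDH5. Precision is limited by having 4 arrays. Counts of separated list genes were repeated under other scalings, an alternative chosen after seeing the data. Python 3.11.15, numpy 2.4.6 and pandas 2.3.3 were used.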

Additional observations from a re-analysis of the deposited data

How the results depend on the processing

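The MECOM difference of 1.45 and gap of 1.37 (221884_at) kept their direction and stayed past 1 log2 unit with a pseudocount of 1. They also did so after quantile normalization and after median centring. Without any 1 array the difference ran from 1.39 to 1.52. The gap then ran from 1.37 to 1.51, but leaving out an array can only keep or raise a gap, so this is no check of it. With a pseudocount of 64 the difference was 0.94 and the gap 0.89, and as the mean over all 5 probe sets 0.56 and 0.49 (3 of the 5 being dim). For 226420_at a pseudocount of 64 gave 0.89 and a gap of 0.70. Without 1 array its difference ran from 1.16 to 1.75 and its gap, which again could not fall, from 1.10 to 1.69, the highest without shCTRL. The PRDM16 difference ran from 0.15 to 0.67 when 1 array was left out. Its gap of -0.01, which likewise could not fall, ran from -0.0113 to 0.51, the highest without hairpin #1. The count of probe sets past the size rule, 7, was 1 with the filter at the 75th percentile, 2 with a pseudocount of 64, 12 without untransfected cells, 27 without shCTRL, 129 without hairpin #1 and 13 without hairpin #2. With 1 array left out the size rule compares fewer arrays and is easier to meet, so those counts do not follow the same rule as the 7. Why they differ from each other was not tested. Pearson correlation shared 5 of the 8 MECOM and 1 of the 5 PRDM16 genes. Of 104 other differences, 0 changed sign with another pseudocount or median centring and 6 did after quantile normalization. With 1 array left out, 13 did without untransfected cells, 13 without shCTRL, 12 without hairpin #1 and 25 without hairpin #2. Among those of at least 0.2, 6 of 41 changed sign without hairpin #2, 2 without shCTRL, 2 without hairpin #1 and 0 without untransfected cells. Every array reads the dim MECOM and PRDM16 probe sets near the lower end of its scale, which limits what their values can show. No paired analysis was possible because each group has 1 array.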
